A study of Mus musculus with 24 samples.

Results

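Guts of mouse embryos that lacked Ret were compared with guts of wildtype embryos at embryonic day 12.5, by RNA sequencing of whole guts. The wildtype group held 6 guts and the Ret null group held 6 guts, 3 female and 3 male in each, all on a mixed C57BL/6, 129/Sv and C3H background; the Ret allele is not given in the labels. Both groups were wildtype for Sema3d, the other gene the series targeted, which also had 6 Sema3d null and 6 double null guts. Every gene with a bounded and converged fit in the authors' deposited table for this pair of genotypes was taken, which is 23537 of the 24602 genes in that table and of the 26260 genes in the series. A fit was counted as bounded where its log2 change was at most 15 in size. The tables hold 1 fitted value per gene and genotype, so no value of an individual gut is given, the depth of each library is unknown, and no gut could be left out in turn. The p-values rest on the spread between guts that remains once sex and genotype are fitted, as the authors' model estimated it. The labels do not say which guts were littermates.

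Ret is the receptor tyrosine kinase for ligands of the GDNF family, which bind it together with a GFRα co-receptor. Neural crest cells that enter the embryonic gut carry Ret, and GDNF made by the gut mesenchyme drives their survival, division and migration. These cells form the neurons and glia of the enteric nervous system, and mice without Ret lack enteric ganglia along most of the intestine.

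In Ret null guts, transcripts of enteric neurons and of their crest precursors fell by widely different amounts. The authors' deposited table called 550 genes lower, which is 2.34% of the genes tested, and 93 higher, which is 0.395% (likelihood ratio test of the genotype term, Benjamini-Hochberg adjusted p below 0.05). An unadjusted p below 0.05 was reached by 1968 genes. The median log2 change of a called decrease was -1.05, and that of a called increase was 0.32. Of the decreases, 513 were protein coding genes, as were 80 of the increases and 17121 of the 23537 genes tested. Called lower genes made up 1.75% of the summed fitted level in wildtype guts and 1.18% in Ret null guts. Over all genes tested the median log2 change was 0.00086. Of the 12235 genes whose level reached 50 in either genotype, 397 (3.24%) were called lower and 84 (0.687%) higher, and the median log2 change of these 12235 genes was 0.0079. A fitted level is a normalised count averaged over the sexes; it was not corrected for gene length, so levels are compared between genotypes and not between genes. In bulk tissue, fewer cells of a type and less RNA per cell cannot be told apart.

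**Figure D1:**
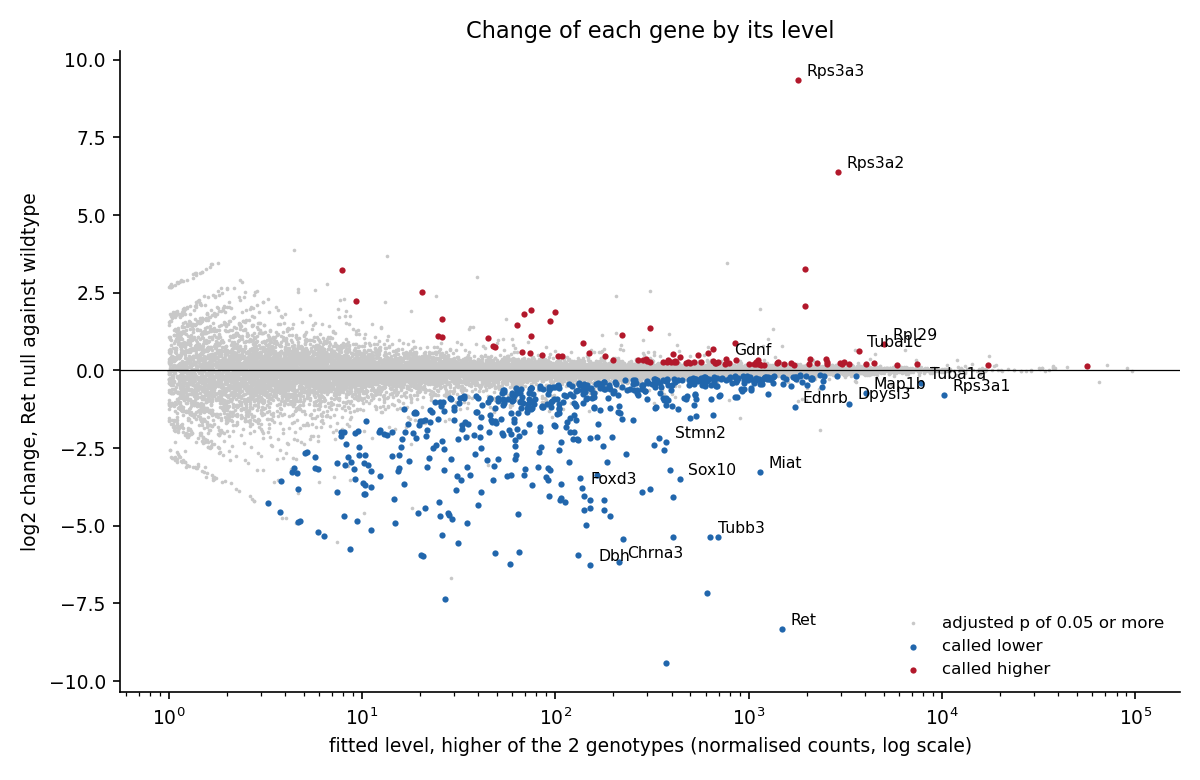
Log2 change of each gene in Ret null against wildtype guts (vertical axis), by the higher of the fitted levels of both genotypes (horizontal axis, normalised counts, log scale, drawn from a level of 1). Grey points were not called, blue points were called lower (550 genes) and red points called higher (93 genes); decreases reach far below 0 at levels where most increases stay within 0.5.

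Ret itself was the most reduced protein coding gene with a bounded fit. It lies on the minus strand of chromosome 6 (GRCm38, 118151745 to 118197718) and is listed as ENSMUSG00000030110.13. Its fitted level was 1486 in wildtype and 4.59 in Ret null guts, so 0.309% of the wildtype level remained (95% interval 0.223 to 0.429). This is the check of the labels and is no result of the comparison.

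The losses were graded rather than of a single size. A log2 change below -5, less than 3.125% of wildtype, was called for 22 genes. Between -5 and -4 there were 31 genes, between -4 and -3 there were 51, and between -3 and -2 there were 63. Those 167 genes, 0.71% of the genes tested, had 25% of the wildtype level or less. A further 117 genes lay between -2 and -1, 189 between -1 and -1/3, and 77 between -1/3 and 0. The genes at 25% or less of wildtype took 0.145% of the summed level in wildtype guts and 0.0129% in Ret null guts.

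The bands differ in level as well as in loss. The median wildtype level was 61.7 in the band below -5, between 31.1 and 38.1 in the bands from -5 to -2, 66.4 from -2 to -1, 181 from -1 to -1/3 and 944 from -1/3 to 0. How small a change could pass depended on the level. For genes at a level of 1 to 10 the smallest called change was 1.96 in size, for those at 10 to 50 it was 0.743, for those at 50 to 200 it was 0.335, and for those at 1000 to 5000 it was 0.155. No gene below a level of 1 was called, out of 3211. A modest loss in a gene of low level was therefore not detectable, and the count of genes in the shallow bands is a count of genes measured well enough. The share of genes called lower was highest at levels of 50 to 200, at 5.92% of 3312 genes.

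**Figure D2:**
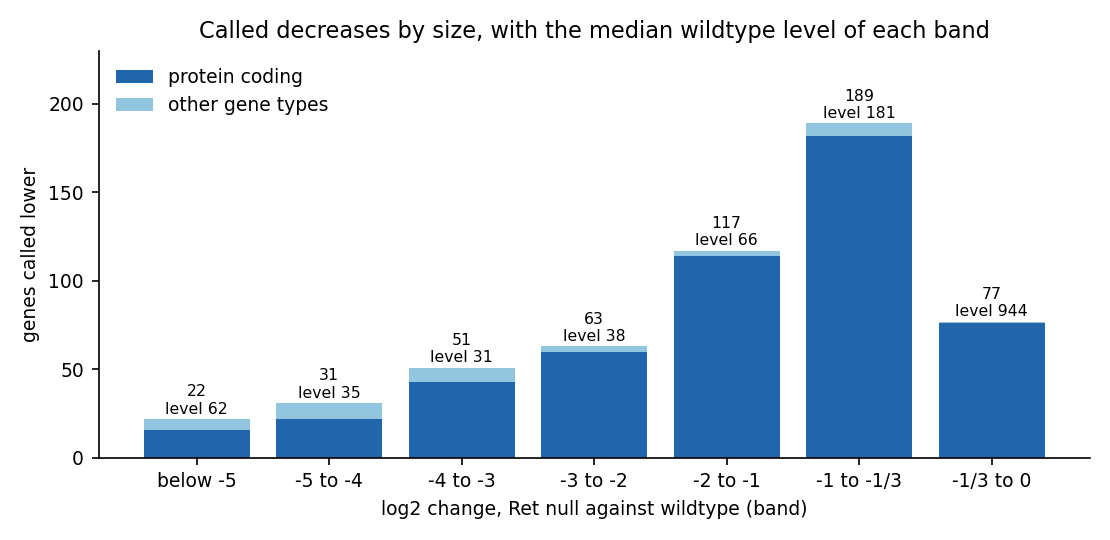
Number of genes called lower (vertical axis) in each band of log2 change (horizontal axis), split into protein coding genes and other gene types, with the number of genes and the median wildtype level written above each bar. The number rises from 22 below -5 to 189 between -1 and -1/3, and the median level is highest in the band nearest 0.

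Genes of several roles are named from each band in turn. Below -5 lay Dbh, the enzyme that makes noradrenaline, with 1.29% of wildtype left (95% interval 0.809 to 2.06), Chrna3, a nicotinic acetylcholine receptor subunit, with 1.38% (1.04 to 1.85), and the homeobox gene Tlx2 with 1.62% (1.10 to 2.40). From -5 to -4 came the intermediate filament genes Ina at 3.85% and Prph at 4.42%, the splicing factor Srrm4 at 4.68%, and Nos1, the neuronal nitric oxide synthase, at 6.01% (4.24 to 8.52). The next band held L1cam, an adhesion molecule of axons and crest cells, at 7.10% (5.93 to 8.51) and Sox10, the factor of crest precursors and glia, at 8.83% (6.60 to 11.8).

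Between -3 and -2 were Syt1, the calcium sensor of synaptic vesicles, with 15.5% of wildtype left (13 to 18.5), and Stmn2, a regulator of microtubules in growth cones, with 20.3% (16.6 to 24.9). Between -2 and -1 were Gap43, a growth cone protein, at 36.0% (32.3 to 40.1) and Ednrb, the endothelin receptor of crest cells, at 44.3% (40.8 to 48.1). The 95% intervals of Tubb3, Sox10, Syt1, Gap43, Map1b and Hand2 do not overlap one another. These genes were named from separate bands of the same changes, so this is no test of how graded the losses are. The band from -1 to -1/3 held Tbx3 at 54.8%, Erbb3, the neuregulin receptor of glial precursors, at 55.5%, the microtubule protein Map1b at 60.3% (56.7 to 64.2) and the cyclin Ccnd1 at 69.4% (63.8 to 75.5). In the shallowest band were the receptor Notch2, whose log2 change was -0.18 ± 0.05 in the authors' deposited table (adjusted p = 0.0122), the bHLH factor Tcf4 at -0.19 ± 0.05 (adjusted p = 0.00311) and Hand2, a factor of crest cells and gut mesenchyme, at -0.28 ± 0.06 (adjusted p = 7.98e-05). The error after ± is a standard error derived from the authors' fit.

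**Figure D3:**
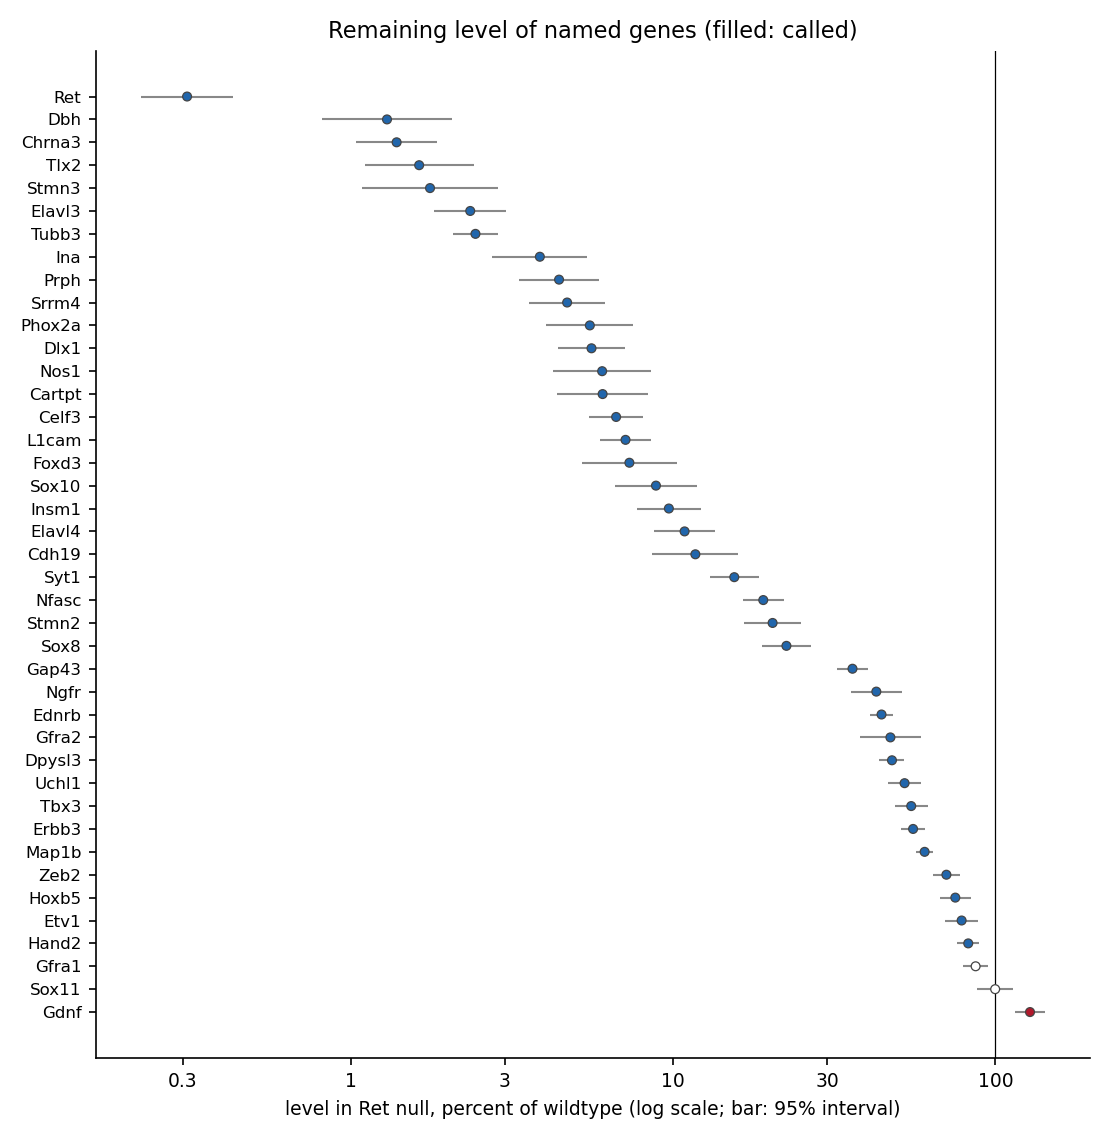
Fitted level in Ret null guts as a percent of the wildtype level (horizontal axis, log scale) for genes named in the text, with 95% intervals as bars. Filled points were called and open points were not; the genes run from Ret at 0.309% through Sox10 at 8.83% and Ednrb at 44.3% to Gdnf, the filled point above 100%.

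Gene lists were then read by role, counting the members with a bounded fit; Pspn, Nhlh2, Neurod4, Calcb and Gpr37l1 of the neural lists had none. Genes of the GDNF and endothelin pathways differed among themselves. Of 13 members measured, 3 were called lower and 1 higher, and their median log2 change was 0.05. Those lower were Ret, Ednrb and Gfra2, the co-receptor for neurturin, at a log2 change of -1.08 ± 0.16 in the authors' deposited table (adjusted p = 2.36e-09). Gfra1, the co-receptor for GDNF, had a level of 1925 in wildtype and 1671 in Ret null guts, a log2 change of -0.20 ± 0.06 in the authors' deposited table that did not pass (adjusted p = 0.0584). Gdnf, the ligand, rose from a level of 597 to 765, a log2 change of 0.36 ± 0.08 in the authors' deposited table (adjusted p = 0.000221). The endothelin ligand Edn3 and its processing enzyme Ece1 had log2 changes of 0.22 ± 0.13 and 0.15 ± 0.05 in the authors' deposited table, and neither passed (adjusted p = 0.729 and 0.0574).

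Transcription factors of crest cells and neurons ranged from deep losses to no call. Of 34 measured, 21 were called lower and 0 higher, with a median log2 change of -1.29. That median was -0.52 for members at a level of at least 50 and -0.87 without members that other lists share, so its size depends on the genes of low level and on the shared ones. The deep losses were those of Tlx2, Phox2a (5.50% of wildtype left), Foxd3 (7.30%), Sox10 and Insm1 (9.69%). Sox8, a relative of Sox10, kept 22.4% (18.8 to 26.8). A group of factors fell by far less: Tbx2 kept 66.3%, Zeb2, a factor needed for crest formation, kept 70.5%, Hoxb5 kept 75.1%, and Etv1 had a log2 change of -0.35 ± 0.09 in the authors' deposited table. Sox4, Sox11, Meis1, Isl1 and Pbx3, which many embryonic tissues express, had wildtype levels from 552 to 5531 and were not called. Their log2 changes ran from -0.09 ± 0.04 for Sox4 to 0.18 ± 0.14 for Isl1 in the authors' deposited table. The levels of Sox11 were 5531 and 5523.

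More homeobox genes, picked for their size after their values were seen unless stated, stood beside them. Dlx1 and Dlx2, which the naming rule selected, are neighbours on chromosome 2 (GRCm38, 71528113 to 71533981 and 71543408 to 71546754) and kept 5.57% and 5.58% of wildtype. Dlx5 and Dlx6, neighbours on chromosome 6, had log2 changes of -2.09 ± 0.47 and -3.56 ± 1.08 in the authors' deposited table, from wildtype levels of only 13.4 and 3.83. Hmx3 and Hmx2, neighbours on chromosome 7 (131542867 to 131544925 and 131548773 to 131558014), had wildtype levels of 26.8 and 20.2 and fitted levels of 0.164 and 0.328 in Ret null guts, both close to 0. Tlx3, the relative of Tlx2, went from 11.1 to 0.315.

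**Figure D4:**
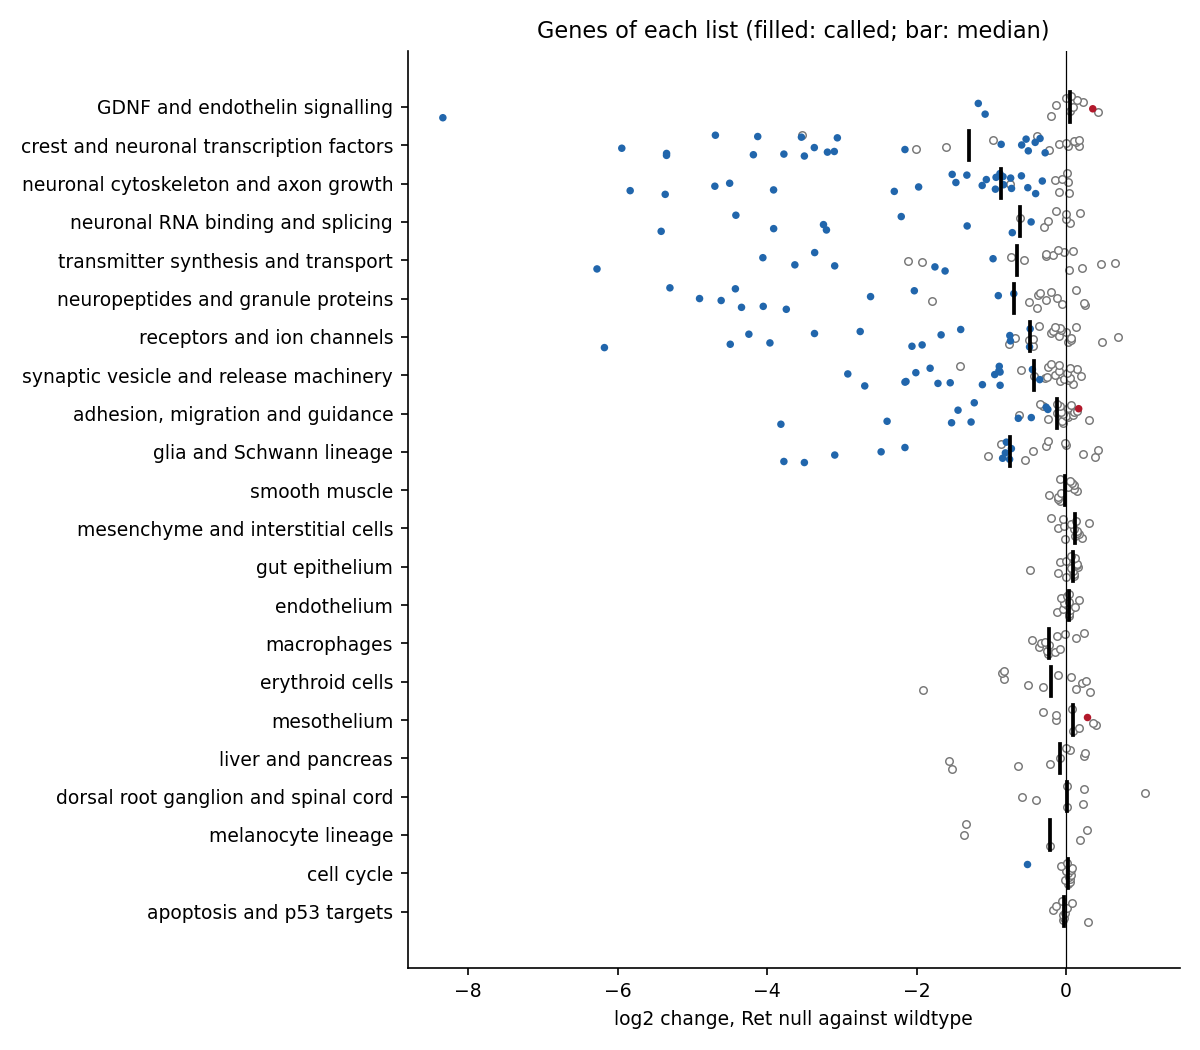
Log2 change of each member of the gene lists (horizontal axis), 1 row per list, with the list's median as a black bar; filled blue points were called lower, filled red points higher, open points were not called. The lowest member of a neural list lies between -8.34 (the GDNF and endothelin list, which holds Ret) and -2.92 (the synaptic list), and the short lists of smooth muscle, mesenchyme, epithelium and endothelium hold 0 called genes.

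Of the neuronal cytoskeleton and axon growth list, 23 of 30 genes were called lower and 0 higher, with a median log2 change of -0.86. Tubb3, the neuronal β-tubulin, went from a level of 630 to 15.3, which is 2.43% of wildtype (2.06 to 2.86), and Stmn3 went from 65.3 to 1.15. Of the neurofilament genes, Nefl kept 45.9% (39.0 to 54.1) and Nefm 56.0% (46.7 to 67.2). Dcx, a microtubule protein of migrating neurons, kept 51.9%, and Uchl1, a neuronal ubiquitin hydrolase, kept 52.2% (46.5 to 58.7). Dpysl3 had the highest level among those at less than 50% of wildtype, with 3304 in wildtype and 1578 in Ret null guts. Basp1, Tubb2a and Kif21b were not called, at log2 changes of 0.03 ± 0.05, 0.04 ± 0.06 and 0.01 ± 0.05 in the authors' deposited table.

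RNA-binding and splicing factors of neurons were called lower for 9 of 17 and higher for 0, with a median log2 change of -0.61, or -0.38 for members at a level of at least 50. Elavl3 kept 2.34% of wildtype (1.81 to 3.03), Celf3 kept 6.64% (5.48 to 8.04) and Elavl4 kept 10.8% (8.70 to 13.5). Elavl2, of the same family, kept 60.7% (51.7 to 71.3). Nova1 and Ptbp2 were not called.

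Genes that make or carry transmitters were called lower for 8 of 22 and higher for 0, with a median of -0.65, or -0.98 for members at a level of at least 50. Several of these are at low levels at this stage. Slc18a3, the vesicular acetylcholine carrier, kept 11.7% of wildtype (7.39 to 18.5), and Slc18a2, the vesicular monoamine carrier, kept 29.6% (23.5 to 37.3). Th, the first enzyme of catecholamine synthesis, kept 32.6%, a smaller loss than that of Dbh, which acts later in the same path. Ddc, which acts between them, had levels of 220 and 225 and was not called. Chat, the acetylcholine-making enzyme, had a level of only 5.59 in wildtype guts, and its log2 change of -2.12 ± 0.73 in the authors' deposited table did not pass (adjusted p = 0.117).

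Neuropeptides and granule proteins were called lower for 11 of 23, with 0 higher and a median of -0.70. Cartpt kept 6.03% of wildtype (4.35 to 8.35) and Cck 4.08% (2.13 to 7.83). Gal kept 4.93% (2.84 to 8.56). Vip, from a wildtype level of only 11.1, kept 7.47% (3.06 to 18.2). Among granule proteins, Vgf kept 4.66% (2.30 to 9.45), Scg3 16.3% and Chgb 61.6%. Cpe, a processing enzyme also made outside neurons, and Penk were not called, at log2 changes of 0.13 ± 0.07 and 0.24 ± 0.15 in the authors' deposited table.

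Of 33 receptors and ion channels, 14 were called lower and 0 higher, with a median of -0.48. The nicotinic receptor genes Chrna5, Chrna3 and Chrnb4 lie next to one another on chromosome 9 (GRCm38, from 54980880 to 55048779). They kept 24% (17.4 to 33.1), 1.38% and 4.44% (3.45 to 5.73) of wildtype, so their intervals do not overlap. Chrna4 kept 71.3%, and Chrna7 was not called. Among channels, the sodium channel subunit Scn3b kept 5.28%, whereas the calcium channel gene Cacna1a, at levels of 196 and 187, was not called.

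The synaptic vesicle and release list had 16 of 35 genes called lower and 0 higher, with a median of -0.43, or -0.24 for members at a level of at least 50. Cplx1, Syt1, Syn1 and Syn2 each kept less than 25% of wildtype, Snap25 kept 30.5% (20.9 to 44.4) and Syp kept 34.2% (25.2 to 46.2). Vamp2, Cplx2 and Dnm1, which take part in the same machinery, had log2 changes between 0.01 and 0.06 in the authors' deposited table and were not called.

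Adhesion, migration and guidance genes had 10 of 30 called lower and 1 higher, with a median of -0.13. L1cam was followed by Nfasc at 19.0% of wildtype (16.4 to 22.0), Nrcam at 34.6%, the semaphorin receptor Plxna4 at 36.7% (32.2 to 41.8) and the neurotrophin receptor Ngfr at 42.7% (35.5 to 51.3). Ncam1, an immunoglobulin adhesion molecule like L1cam, had levels of 2758 and 2689 and was not called. Nrp1 and Nrp2, the semaphorin co-receptors, had log2 changes of -0.24 ± 0.05 and 0.17 ± 0.04 in the authors' deposited table, both called (adjusted p = 0.000203 and 0.00502). Sema3d fell by 0.27 on the log2 scale, from a level of 794 to 660, in guts whose Sema3d gene was not targeted.

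In the list of the glia and Schwann lineage, 10 of 21 genes were called lower and 0 higher, with a median of -0.76. The deep losses were those of Foxd3, Sox10 and Cdh19, which kept 11.7% of wildtype (8.61 to 15.9). Lgi4, a secreted protein of the Schwann lineage, kept 18% (13.7 to 23.7). Fabp7 kept 59.2% (47.3 to 74.1), Metrn 57.0% and Erbb3 55.5%. Mature glial genes were near 0 in wildtype guts, with Gfap at a level of 2.94 and S100b at 0.581.

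Isoform families set neuronal members beside members that most cells express. In 25 families, 24 of 36 neuronal members were called lower and 0 higher, with a median log2 change of -1.03. Of 28 widely expressed members, 2 were called lower, Celf2 and Kif1b, and 0 higher, with a median of 0.0089. Tubb5 had levels of 23151 and 23509 beside the loss of Tubb3. Elavl1, the widely expressed relative of Elavl3 and Elavl4, had 2070 and 2061, and Stmn1 had 5902 and 6011. Mapk10, the neuronal JNK, kept 10.9% of wildtype, and Mapk8 and Mapk9 were not called, at log2 changes of -0.10 ± 0.07 and 0.00 ± 0.06 in the authors' deposited table. Ap3b2 kept 13.8% of wildtype (9.83 to 19.3), and Ap3b1 went from 956 to 959.

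Not every neuronal member fell. In 17 of the 25 families at least 1 neuronal member was called. In the others, among them Vamp2, Stx1a, Dnm1, Ptbp2, Eno2, Pak3 and Tubb2b, the neuronal member was not called, although Tubb2b had a level of 2865. Its log2 change was -0.09 ± 0.05 in the authors' deposited table (adjusted p = 0.593).

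**Figure D5:**
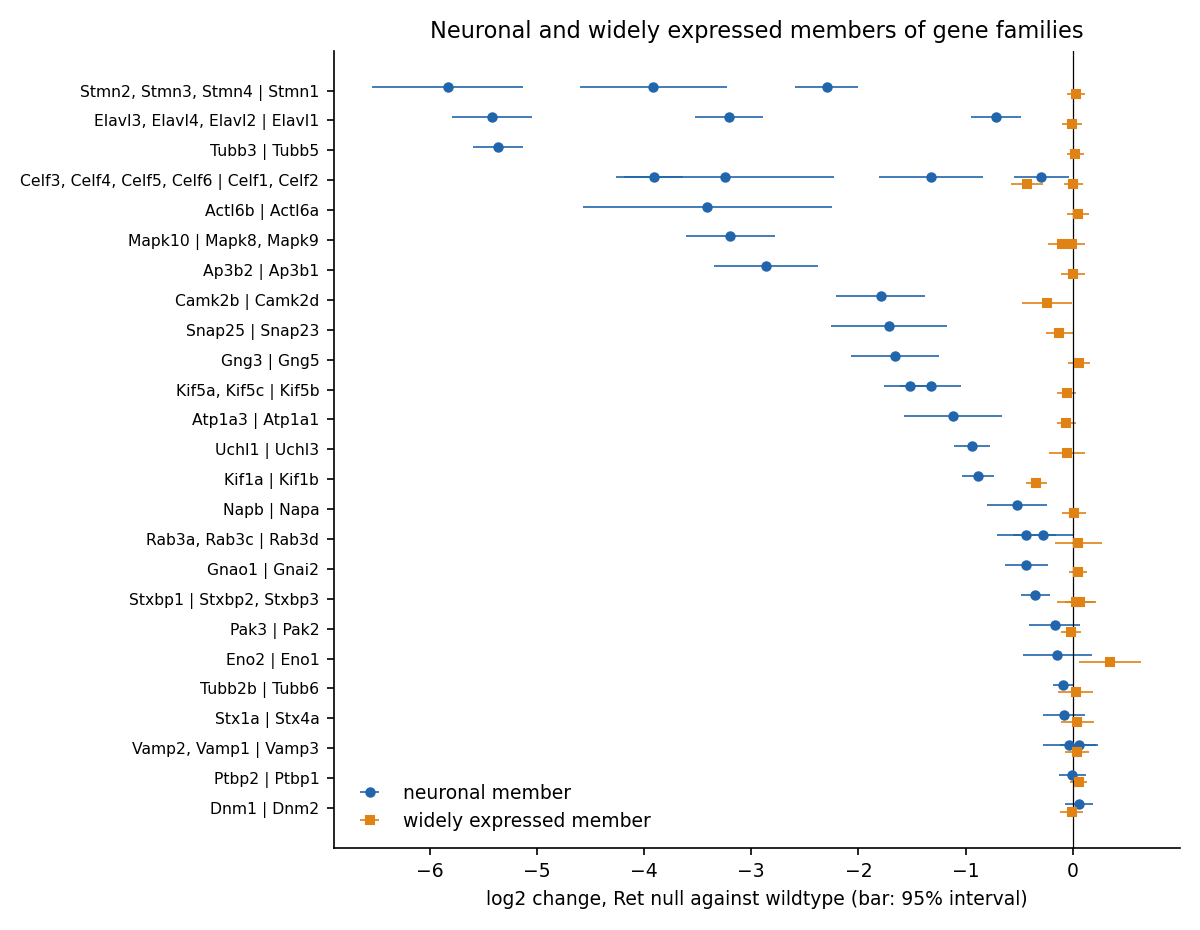
Log2 change (horizontal axis) of the neuronal members (blue circles) and widely expressed members (orange squares) of 25 gene families, 1 row per family, with 95% intervals as bars; 1 neuronal member is not drawn. The squares lie near 0, the lowest being Celf2 and Kif1b, while the circles run from near 0 to below -5.

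Lists of other gut cells were short beside a background of 2.73% of genes called in either direction, so nothing is read from a count of 0 in them. In smooth muscle (12 genes), mesenchyme and interstitial cells (14), epithelium (15), endothelium (13), macrophages (13) and erythroid cells (12), 0 genes were called by the likelihood ratio test. At an unadjusted p below 0.05 there were 1, 4, 0, 0, 6 and 1 in that order, beside 1968 of all 23537 genes tested. The medians of these lists were -0.02, 0.11, 0.09, 0.03, -0.23 and -0.20. The last, of erythroid genes, was 0.065 for members at a level of at least 50. Of the 13 macrophage genes, 11 had a log2 change below 0, and their summed level was 86.1% of wildtype. Of the 14 mesenchyme genes, 5 had a log2 change below 0. Whether these lists shift as a whole was not tested. Acta2 had levels of 5008 and 4745, Cdh1 had 1279 and 1276, and Pecam1 had 894 and 920, so the guts carried the transcripts of muscle, epithelium and vessels. Of the mesothelium list 1 of 9 genes was called higher, Aldh1a2. In the lists of liver and pancreas (9 genes), dorsal root ganglion and spinal cord (7), melanocytes (5) and apoptosis (10), 0 were called, with 1, 1, 0 and 2 at an unadjusted p below 0.05. Of the defining markers of dorsal root ganglion and spinal cord, Pou4f1 had levels of 3.17 and 3.20, Isl2 had 169 and 199, and Prdm12 and Olig2 had no bounded fit. The liver gene Afp had a wide error, with levels of 898 and 311 and a log2 change of -1.53 ± 1.35 in the authors' deposited table. The median error over the liver and pancreas list was 0.196. The part of blood and liver tissue in other results was not tested. In the cell cycle list Ccnd1 was called lower and the other 12 genes were not called.

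Increases were fewer and smaller. Of the 93 genes called higher, 61 rose by less than 0.5 on the log2 scale and 19 by 1 or more, of which 10 were protein coding. Among the 61 genes the median wildtype level was 676. The following were picked after their values were seen, apart from Gdnf, Nrp2, Aldh1a2 and Fendrr. Tnfrsf19, a TNF receptor family member, rose by a log2 change of 0.35 ± 0.06, Rspo1, a secreted enhancer of Wnt signalling, by 0.32 ± 0.08, and the Frizzled receptor Fzd4 by 0.27 ± 0.07, in the authors' deposited table (adjusted p = 3.77e-07, 0.00426 and 0.00612). Fendrr, a long noncoding RNA transcribed beside Foxf1, went from a level of 1625 to 2080, a log2 change of 0.36 ± 0.09 in the authors' deposited table. Foxf1 itself was not called, at 0.17 ± 0.07 in the authors' deposited table (adjusted p = 0.264). Mdk, a secreted growth factor, rose from 6403 to 7476 and Aldh1a2, which makes retinoic acid, from 2565 to 3120. Igf2, the fetal growth factor, rose from 50755 to 56464. Gapdh, often used as a control gene, was called higher too, at 0.16 ± 0.05 in the authors' deposited table (adjusted p = 0.0301). Subtracting the median change of genes at a level of at least 50, which was 0.0079, could not reverse these directions. The smallest called change at such a level was 0.154 in size. Whether normalisation bears on these small increases was not tested.

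Some of the large increases were in genes with near copies elsewhere in the genome. The ribosomal protein pseudogenes Rps3a3 and Rps3a2 rose from levels of 2.75 and 34.4 to 1796 and 2896, while the gene they were copied from, Rps3a1, went from 10289 to 5970. Summed over the 3 genes, the level was 10326 in wildtype and 10662 in Ret null guts, 103% of wildtype. The rise of Rps3a3 and Rps3a2 was not particular to Ret null guts. Against the same wildtype guts, their log2 changes were 8.62 and 5.62 in Sema3d null guts in the authors' deposited tables. In double null guts they were 7.51 ± 2.54 and 4.57 ± 2.15. In another group of near copies, Tuba1c rose by 0.62 ± 0.15 and Tuba1a fell by 0.41 on the log2 scale in the authors' deposited table. Here the summed level of Tuba1a, Tuba1b and Tuba1c fell, from 25882 to 24408, which is 94.3% of wildtype. Whether the loss of Tuba1a reflects the assignment of reads was not tested. The values of such copies are uncertain, since reads may be assigned to either copy. Alad, an enzyme of haem synthesis, and its neighbour on chromosome 4, Hdhd3, rose by 0.90 ± 0.15 and 1.12 ± 0.28 in the authors' deposited table.

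Noncoding transcripts took part in the losses. The share called in either direction was 0.597% of 1173 lincRNA genes, 0.512% of 976 antisense genes and 1.59% of 504 processed transcripts. It was 3.46% of 17121 protein coding genes. The small types misc_RNA (49 genes) and sense overlapping (18 genes) had 4.08% and 5.56%. Miat, a long noncoding RNA of neurons, went from a level of 1145 to 119, which is 10.4% of wildtype (9.09 to 11.9). Sox2ot, which spans Sox2, kept 17.6% (11.9 to 26.0), while Sox2 itself, also made by the foregut epithelium, had levels of 258 and 220 and was not called. The host transcript Mir124a-1hg kept 1.68% (0.955 to 2.97).

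Transcripts that carry a microRNA hairpin on the same strand were 34 of the 550 genes called lower (6.18%), against 594 of all genes tested (2.52%). Among genes called higher they were 4 (4.30%). All genes tested include 3211 below a level of 1, where none was called, and 513 of the 550 genes called lower were protein coding. The shares were not matched for level, gene type or gene length, so they show no trait of the lost genes. Of the 167 genes at 25% of wildtype or less, 10 were hosts (5.99%). Mir124a-1hg was matched to no hairpin here and is not counted among them. The mature microRNAs of 4 of these 10 hosts are shown 5′ to 3′ from RefSeq (GRCm38.p6), with the seed, bases 2 to 8, in capitals. They were chosen because their hosts run from a log2 change of -4.83 for Gm26871 to -2.18 for Hoxd3. MicroRNAs of hosts with smaller losses are not shown. The seeds of the 4 differ from one another. The hosts were measured here and the microRNAs were not.
miR-137-3p: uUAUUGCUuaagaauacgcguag
miR-9-5p: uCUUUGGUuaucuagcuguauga
miR-128-3p: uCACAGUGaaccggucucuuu
miR-10b-5p: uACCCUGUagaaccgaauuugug

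The host of miR-137, Gm26871 (chr3:118430324-118530022, plus strand), went from a level of 4.76 to 0.167, and the host of this copy of miR-9, C130071C03Rik (chr13:83721381-83884194, plus strand), from 24.9 to 1.32. Arpp21, which holds miR-128-2 (chr9:112065091-112235938, minus strand), kept 10.5% of wildtype (4.58 to 24.2). Hoxd3, whose gene model holds miR-10b (chr2:74711927-74748442, plus strand), kept 22.0% (17.5 to 27.6). That model overlaps the gene Hoxd4, which had levels of 204 and 187 and was not called, so reads in the shared part cannot be placed with certainty.

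Promoters of 300 bases, 250 before and 50 after the start, were found in RefSeq (GRCm38.p6) for 13965 of the genes tested. A gene was counted for a motif where any of its promoters held it, so the shares are of genes. Genes with several starts had more chances of a match. TTCAGCACC, the left part of the RE1 element that the neuronal gene repressor REST binds, was searched on both strands. It occurred in 5 of the 111 genes with a promoter at 25% of wildtype or less (4.50%) and in 70 of all 13965 (0.501%). It occurred in 0 of 82 genes with a called change from -2 to -1, in 2 of 199 with a smaller loss (1.01%) and in 0 of 56 called higher. The right part of the element, of 10 bases, stood in 1 of the 111 genes (0.901%) and in 36 of all (0.258%). A match is a run of letters and shows no binding.

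The 5 matches are shown because the count rests on them; each run starts with the left part in capitals, the right part is in capitals where its letters are complete, and the coordinates are GRCm38.p6.
Celsr3, chr9:108825918-108825947, plus strand: TTCAGCACCgtgggcagcacttctgttctc
Dner, chr1:84696342-84696371, minus strand: TTCAGCACCaaggacaagggccccggtctt
Syn1, chrX:20921121-20921150, minus strand: TTCAGCACCgcggtcagagccttcgcctcc
Unc13a, chr8:71671727-71671756, plus strand: TTCAGCACCgggggcgcGGACAGCGCCtga
C130071C03Rik, chr13:83728097-83728126, minus strand: TTCAGCACCcttaattcttatggcattttc

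At the usual spacing of 2 bases, the letters that follow equal the right part at 8 of 10 positions in Syn1, 7 in Celsr3, 7 in Dner, 5 in Unc13a and 1 in C130071C03Rik. Celsr3, a cadherin that guides axons, kept 9.12% of wildtype (7.09 to 11.7), and Dner, a neuronal ligand of Notch, kept 20.9% (13 to 33.5). Syn1, a synaptic vesicle protein, kept 22.4% (15 to 33.7), and Unc13a, which primes vesicles for release, kept 24.8% (18 to 34.3). Of the other letters searched, the E-box CATCTG was in 25.2% of the 111 genes and in 15.2% of all, and in 9.76% of those from -2 to -1. The E-box CAGCTG was in 26.1% and 19.1%. The Sox motif ACAAAG was in 16.2% of the 111 genes and in 17.5% of all. It was in 23.2% of those from -2 to -1 and 25.6% of those with a smaller loss. A motif of paired homeodomain sites was in 1 of the 111 (0.901%) and in 39 of all (0.279%). TATAAA was in 10.8% and 10.3%, and the GC box GGGCGG in 62.2% and 60.7%.

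The same wildtype guts were the controls of the double null guts, so that comparison is given beside this one and does not stand apart from it. In the authors' deposited tables the log2 change of Tubb3 was -5.36 ± 0.12 without Ret and -5.43 ± 0.12 without both genes, that of Sox10 was -3.50 ± 0.21 and -3.61 ± 0.22, and that of Ednrb was -1.17 ± 0.06 and -1.11 ± 0.07. Stmn2 had -2.30 ± 0.15 and -1.73 ± 0.15, Gfra2 had -1.08 ± 0.16 and -0.51 ± 0.16, and Zeb2 had -0.51 ± 0.07 and -0.17 ± 0.08. For these 3 genes the Ret by Sema3d interaction over 24 guts did not pass in the authors' deposited table (adjusted p = 0.713, 0.513 and 0.186). The gap between the Ret null and double null changes of a gene also holds the effect of Sema3d loss. The interaction test therefore does not decide that gap, which was not tested here. Over the genes tested here, 38 (0.161%) passed the interaction test.

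Genes near Ret were counted apart, since both genotypes stood on a mixed background. Within 5 Mb of Ret on chromosome 6, 8 of 152 genes were called lower and 2 higher, which is 6.58%, beside 2.73% of all genes tested. Within 10 Mb, 12 of 273 were lower and 3 higher (5.49%), and beyond 20 Mb 20 of 935 were lower and 3 higher (2.46%). Those within 5 Mb include Iqsec3 (4.13% of wildtype), Syn2 (22.7%) and Lhfpl4 (32.4%), which are neuronal genes. They also include Zfp9 at a log2 change of -0.46 ± 0.08 and Ankrd26 at 0.27 ± 0.06 in the authors' deposited table. On a mixed background, alleles of the strain that carried the mutation can stay linked to it, and their effect cannot be told apart from that of Ret for these genes.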

How the data were processed

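RNA from 12 whole guts of this comparison was sequenced, out of 24 in the series. Per the submitters' processing notes, the tools were DESeq 1.24.0, RSEM 1.2.31, STAR, Trimmomatic 0.36 and FastQC 0.11.5, with GRCm38 (mm10); no STAR version is given in the sources used here. The authors deposited, per the file headers, model coefficients of intercept, sex and genotype, read here as log2 values, deviances of both models (used as a score of fit), p-values and adjusted p-values. The log base is not named; base 2 was used, since the natural base gives a summed wildtype level 37.6 times as high. Symbol and gene type headers are exchanged in the table and were read by content.

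The chi-square tail of the deviance difference gave the deposited p-values within 2.98e-11. The standard error was derived as the size of the coefficient over the square root of that difference, and gives the 95% intervals; adjusted p of the strongest genes was recomputed from deviances. Levels are base 2 powers of the intercept, averaged over sexes. No count test was possible without counts. Coordinates come from GENCODE annotation for GRCm38, matching 23390 of 23537 genes. Arithmetic was tested on simulated data in Python 3.11.15 with scipy 1.17.1.

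Named were Ret, the 25 largest decreases and 15 largest increases among called protein coding genes at a level of at least 50, the 6 highest-level genes of each band, up to 6 called genes by p and up to 3 uncalled genes in each list, every called member that rose, family members, called genes within 5 Mb of Ret, and the 10 highest-level genes of other types; a selection of these is printed, and some are not reported here. List members outside these rules, such as Chat, Sox2 and Gfap, and Celsr3, Dner, the microRNA hosts and genes flagged below were picked with their values known. The comparison, lists and rules were chosen with earlier results of these data known. Alternatives were another threshold, level floors, gene types, a minimum size, recentring and the 24-gut fit.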

Additional observations from a re-analysis of the deposited data

Results flagged for a closer look

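Of the 643 genes called in Ret null guts, 18 passed the authors' interaction test over 24 guts (adjusted p below 0.05 in the authors' deposited table). By that test the effect of Ret loss differed between guts with and without Sema3d. Over all genes tested here, 38 of 23536 passed (0.161%). Both tests use the same wildtype and Ret null guts, so the 18 are not an independent count. The interaction is the log2 effect of Ret loss in Sema3d null guts minus that in guts wildtype for Sema3d.

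Plxna4, the semaphorin receptor, was the only member of the neural lists among the 18. Its interaction was 0.66 in the authors' deposited table (adjusted p = 0.0265), with a Ret effect of -1.44 where Sema3d was intact and -0.78 where it was lost. Other protein coding genes that fell in Ret null guts had interactions of 0.88 for Lyst, 0.57 for Samd5, 0.78 for Wdfy2, 0.57 for Zfp398, 0.61 for Vps13c, 0.52 for Kctd12 and 0.93 for Ero1lb. Their Ret null changes were between -0.26 for Vps13c and -0.92 for Lyst. Sema3d null guts, set against the same wildtype guts, changed in the same direction for these genes. Those changes ran from -0.19 for Kctd12 to -0.53 for Lyst in the authors' deposited table. For Plxna4 the Sema3d null change was -0.10.

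Genes with copies or of other types that fell had 10.03 for Gm8210, 1.28 for Gm9581, 1.12 for Gm38372 and 5.82 for Tma7-ps. Those that rose in Ret null guts had -10.47 for Rps3a3, -7.44 for Rps3a2, -1.71 for Gm17383, -0.93 for Tuba1c, -1.05 for Rpl29 and -0.93 for 1500015A07Rik. In the authors' deposited tables Rps3a3 changed by 9.35 in Ret null, 8.62 in Sema3d null and 7.51 in double null guts, all set against the same wildtype guts. The other genes with copies or of other types also changed in the same direction in Sema3d null as in Ret null guts. Among them were Rps3a2 at 5.62, Rpl29 at 0.68 and Tuba1c at 0.57 in Sema3d null guts. Which guts carry these values was not tested.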

How the results depend on the processing

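No paired analysis was possible because the deposited tables hold fitted coefficients and no value per library; leaving out guts in turn was not run for the same reason. The count of lower genes stayed between 411 and 559 under all alternatives run. The count of higher genes fell from 93 to 43 at an adjusted p below 0.01 and to 32 with a log2 change of at least 0.5, and was between 80 and 114 otherwise. The count at 25% of wildtype or less was 167, or 72 at a level of at least 50, and 141 to 167 otherwise; fewer genes are counted by that floor's construction. Medians of the lists of transcription factors, RNA-binding factors and synaptic genes moved toward 0 at that floor, as given beside them. All 643 called genes had the same sign in the 24-gut fit, which rests on the same guts. Of 241 called genes checked, 44 missed an adjusted p of 0.01. Level limits small changes: at a level of at least 50 the median derived error was 0.0776.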

Other observations

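Outside the bounded fits, 11 more genes were called in the authors' deposited table. Among them, 3 protein coding genes had low wildtype levels and were fitted at about 0 in Ret null guts: Pou4f2, a POU homeobox factor of neurons, at a wildtype level of 22.0, Prrxl1, a homeobox factor of sensory neurons, at 5.24, and Cacng2, a glutamate receptor partner, at 2.68. No fold is given for them. Hist1h2ah, a histone gene with many copies, came from a fit that did not converge.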
